A study of Rattus norvegicus with 6 samples.

Results

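Metalloproteinases and their inhibitors were examined in whole spleens of male Sprague-Dawley rats with portal hypertension. The members are the genes whose single symbol begins with Mmp, Adam, Adamts, Adamtsl or Timp and a digit, together with Reck. Of the 18166 genes measured by a probe set with 1 symbol, 69 met this rule, namely 20 Mmp, 25 Adam, 14 Adamts, 5 Adamtsl and 4 Timp genes and Reck, each with 1 probe set. In the PPVL group (3 rats), the portal vein was narrowed by a ligature tied over a blunt needle (partial portal vein ligation). In the sham group (3 rats) the vein was dissected but not tied, and spleens of both groups were taken 10 days after surgery. RNA of each spleen was hybridised to its own Affymetrix rat gene array, and values are log2 intensities after RMA normalization, so a difference of 1 is a doubling of signal. Another 14 rat genes that fit the name rule, Adam10, Adam33, Adamts13, Adamts16 and Mmp25 among them, were not analysed here.

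These enzymes hold a zinc ion in their catalytic site and cut proteins outside or at the surface of cells. Mmp enzymes degrade collagens, basement membrane and other matrix proteins, and most are secreted or membrane-bound precursors that must lose a propeptide. Adam proteins span the plasma membrane and release growth factors, cytokines and receptors from it, although some have no proteolytic activity and many serve in sperm. Adamts enzymes are secreted, trim procollagens and cleave proteoglycans, and the related Adamtsl proteins have no protease domain and sit in microfibrils. Timp proteins block the active site of these enzymes, and Reck is a membrane-anchored inhibitor. In the spleen, collagen and reticular fibres form the capsule, the trabeculae and the mesh of the pulp, and neutrophils and macrophages carry matrix proteases of their own.

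The mean log2 level of 10 measured spleen markers was 10.002 to 10.096 in PPVL rats and 9.996 to 10.006 in sham rats. Of these, the 8 markers of B cells, T cells and red pulp macrophages lay between 9.03 and 11.91 in PPVL rats and between 9.25 and 12.01 in sham rats, and none passed the test described below. The other 2 are transcription factors of spleen stroma, of which Nkx2-5 was at 7.39 to 7.57 in PPVL rats and 7.03 to 7.46 in sham rats, and Tlx1 was higher in every PPVL rat and past the test, with a log2 fold change of 0.36 (0.29 and still past it without PPVL rat 1). PPVL rat 1 stood apart. All 19 measured exocrine pancreas markers were highest in this rat, with a mean of 9.78, against 5.36 to 5.43 in PPVL rats 2 and 3 and 5.33 to 5.40 in sham rats. All 9 fibroblast markers were also highest in PPVL rat 1. The main counts over the members, the family medians and the members past the test are therefore given with and without it. For other genes this is done only in part. In bulk tissue, fewer cells of a type and less RNA per cell cannot be told apart.

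Of the 69 members, 8 were higher and 1 was lower in PPVL spleens, by limma's empirical Bayes test at an unadjusted p under 0.05, the threshold in the study's methods. Over all genes 2.69% were higher and 1.55% lower at that threshold. The genes that rose were Mmp2, Mmp14, Adam8, Adam12, Adamts2, Adamts7, Adamts12 and Adamtsl4, and the gene that fell was Adam17. After Benjamini-Hochberg adjustment over all genes in limma, 0 members and 0 genes in all passed, and the adjusted p of each of the 9 was 0.981. Every PPVL rat lay above every sham rat in 10 members and below in 2, where 6.64% and 4.7% of all genes did so. The median log2 fold change was 0.06 over the members and 0.005 over all genes, and 46 members had a positive value, where 51.7% of all genes did. With 3 rats a group, the smallest two-sided p of an exact permutation test is 0.1. Mmp2, Adam12 and Mmp14 exceeded a 1.5-fold increase, where 0.462% of all genes did. Of the 69 members, 26 lay below the 40th percentile of mean level over all probe sets, the dimmer end of the array, and none of the 9 was among them.

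**Figure D1:**
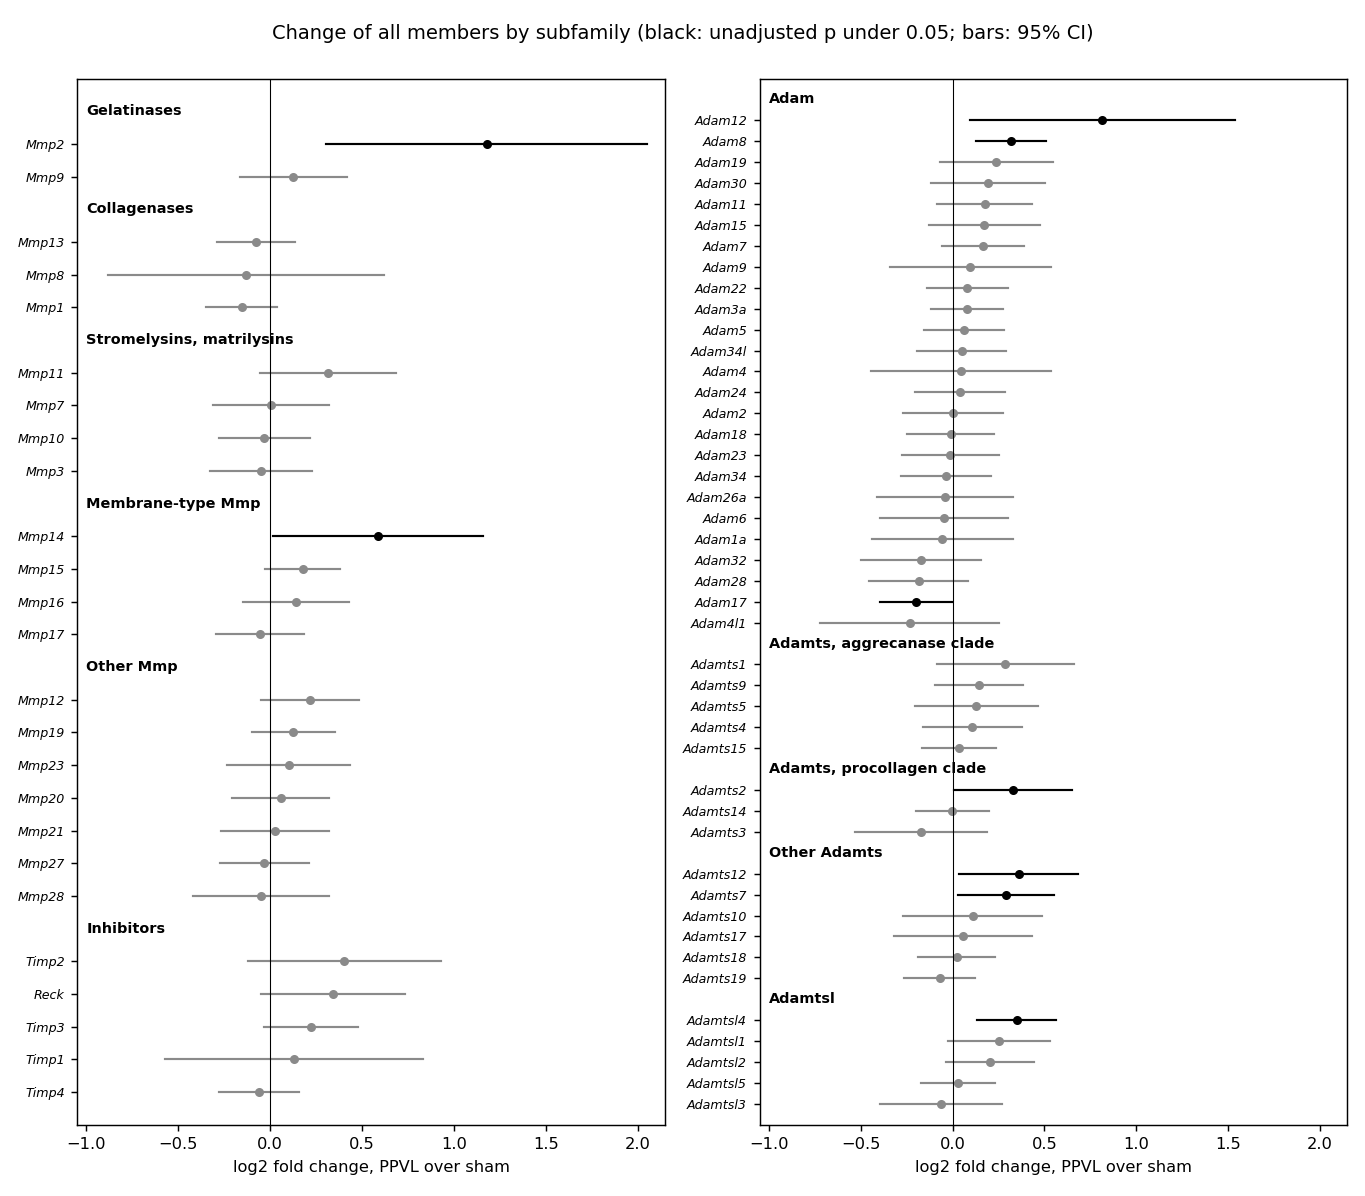
Log2 fold change of PPVL over sham spleens (x axis) for all 69 members, grouped by subfamily, with bars for the 95% confidence interval of limma's fit on 3 rats a group. Black marks the 9 members past an unadjusted p under 0.05. Mmp2 lies farthest to the right at 1.18, and most other intervals cross 0.

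The gelatinases Mmp2 and Mmp9 cleave denatured collagen and the type IV collagen of basement membranes. Mmp2, or gelatinase A, is made mainly by fibroblasts and other stromal cells. It had log2 values of 9.15, 7.59 and 8.11 in PPVL rats 1, 2 and 3, against 7.04, 7.30 and 6.98 in sham rats 1, 2 and 3. The groups did not overlap, and PPVL rat 1 was higher than any other rat by more than 1 doubling. Mmp2 was 2.26-fold higher, a log2 fold change of 1.18 (95% confidence interval 0.30 to 2.05), and it stayed past the threshold without PPVL rat 1, at 0.74 (standard error, SE, 0.19). Mmp9, or gelatinase B, is stored in neutrophil granules. It had 6.84, 7.18 and 6.78 in PPVL rats, against 6.77, 6.85 and 6.79 in sham rats. These ranges overlap, only PPVL rat 2 stands out, and the log2 fold change of 0.13 did not pass (interval -0.17 to 0.42).

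Of the 4 measured membrane-type Mmp genes, 1 rose and none fell, where 2.69% of all genes were higher and 1.55% lower. Mmp14 encodes the membrane protease that activates the precursor of Mmp2 at the cell surface. Its values were 9.03, 8.48 and 8.28 in PPVL rats, against 8.25, 8.16 and 7.63 in sham rats. The highest value was that of PPVL rat 1 and the lowest that of sham rat 3, and PPVL rat 3 lay just above sham rat 1. Mmp14 thus had a log2 fold change of 0.59 (SE 0.24), and its call was lost without PPVL rat 1 (0.37), PPVL rat 2 (0.64), sham rat 2 (0.66) or sham rat 3 (0.39). Mmp15, a second enzyme of this class, was higher in every PPVL rat, at 6.50 to 6.61 against 6.28 to 6.44 in sham rats, but its log2 fold change of 0.18 did not pass. Mmp16 had 0.14 and Mmp17 -0.06.

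Of 9 fibroblast markers, Col1a1, Col1a2, Col3a1 and Pdgfrb rose, where 2.69% of all genes did. Dcn, Lum, Pdgfra, Fap and Thy1 did not pass. Without PPVL rat 1, 8 of the 9 markers had a positive log2 fold change, with a median of 0.49 (0.91 with all rats). Col1a1 (1.06) and Lum (0.49) were then past the threshold, where 1.62% of all genes were higher. Dcn, Col3a1, Col1a2 and Pdgfrb were at 0.65, 0.57, 0.54 and 0.39 without that rat. Pdgfra, Fap and Thy1 were at 0.09, 0.03 and -0.07. The mean level of the 9 markers was 9.36, 8.34 and 8.16 in PPVL rats 1, 2 and 3, against 7.73, 8.15 and 7.61 in sham rats. PPVL rat 1 thus held the top place in all 9 markers and in 22 of the 69 members (31.9%, against 19.2% of all genes). Mmp2, Mmp14, Adam12 and Reck were among these 22. The part of fibroblast number or of pancreatic tissue in the change of these genes was not tested.

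**Figure D2:**
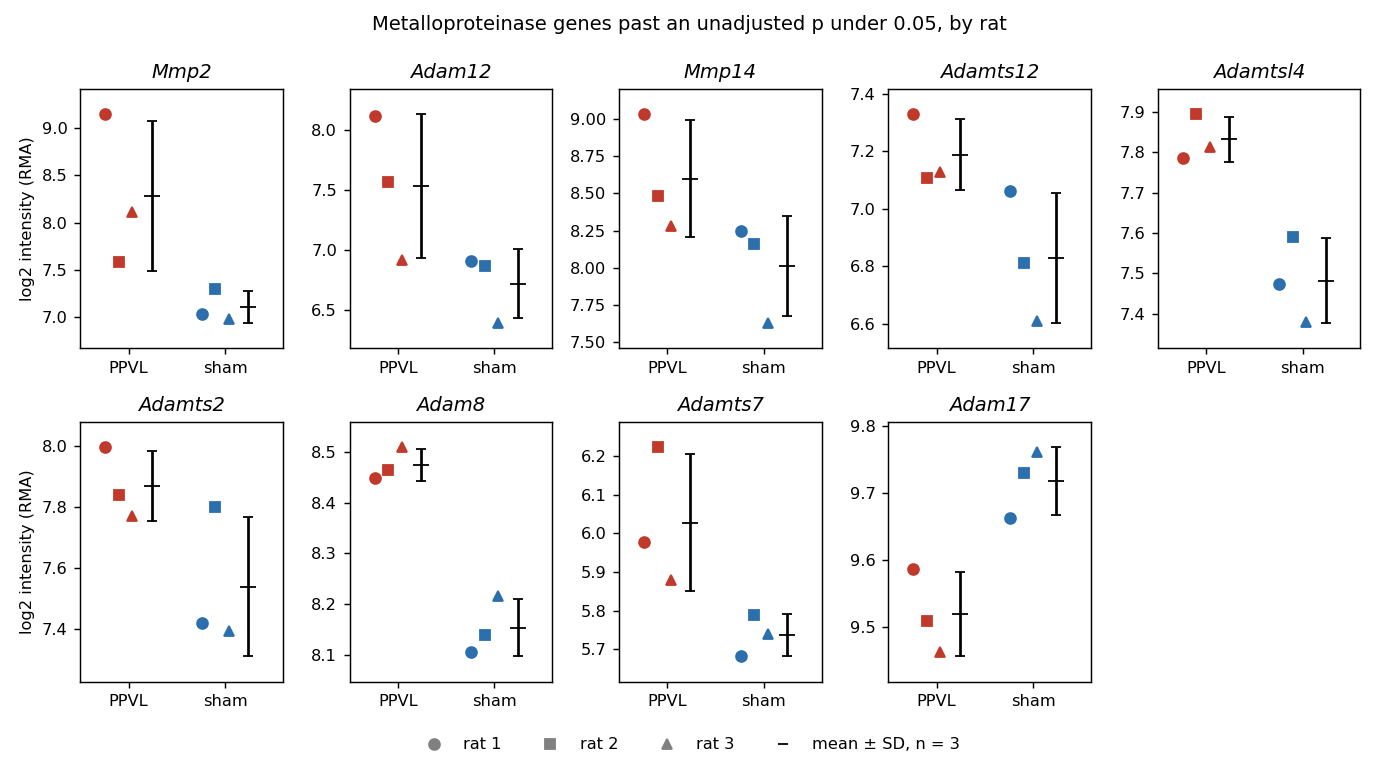
Log2 intensity (y axis) of the 9 members past an unadjusted p under 0.05, with PPVL rats in red at the left of each panel and sham rats in blue at the right. Symbols mark rats 1, 2 and 3, the bar gives the mean ± SD of 3 rats, and each panel has its own scale. PPVL rat 1 is far above the others in Mmp2, Adam12 and Mmp14, while in Adam8 and Adamtsl4 the PPVL rats lie close together.

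The collagenases Mmp1, Mmp8 and Mmp13 make the first cut in fibrillar collagen. None of the 3 passed the test, and all had a log2 fold change below 0. Mmp8, the collagenase of neutrophils, had 7.09, 8.16 and 7.69 in PPVL rats, against 7.996, 8.07 and 7.27 in sham rats. The groups overlap fully, and the log2 fold change was -0.13 with all rats and 0.15 without PPVL rat 1. Mmp1 was lower in every PPVL rat (3.49 to 3.59) than in every sham rat (3.63 to 3.74), a log2 fold change of -0.16 that did not pass and that lies at the dim end of the array. The mean of 8 neutrophil markers was 7.12, 8.09 and 7.41 in PPVL rats 1, 2 and 3, against 7.23, 7.19 and 6.81 in sham rats. Of these 8, Mpo (1.15) and Prtn3 (0.60) rose and were higher in every PPVL rat, where 2.69% of all genes rose. Without PPVL rat 1, 4 passed as higher (Mpo, Prtn3, Camp and S100a8), where 1.62% of all genes did. Cxcr2 had a log2 fold change of -0.28 and Ltf 0.04 with all rats. PPVL rat 2 was the highest rat in the mean of the neutrophil markers, in Mmp8 and in Mmp9, and the part of neutrophils in these values was not tested.

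Among the stromelysins and matrilysins, Mmp11 had the highest log2 fold change, at 0.31 (interval -0.05 to 0.68). Stromelysin 3, its product, is activated inside the cell by furin. Its values were 6.93, 6.80 and 6.80 in PPVL rats, against 6.33, 6.39 and 6.87 in sham rats, so that sham rat 3 lay among the PPVL rats, and without that rat Mmp11 passed the test at 0.49. With all 6 rats it also passed with array weights (0.38) and with median centring (0.32). Mmp3, Mmp7 and Mmp10 were between -0.05 and 0.01. Of the 7 other Mmp genes none passed. The elastase of macrophages, Mmp12, was nearest to the threshold, with 8.30, 8.005 and 8.11 in PPVL rats, against 7.88, 8.06 and 7.82 in sham rats. Its groups overlap, and the log2 fold change was 0.22 (interval -0.05 to 0.48).

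Many Mmp promoters carry a binding motif of AP-1, the dimer of Fos and Jun proteins, and it is best known from the collagenase and stromelysin genes. Fos and Jun, chosen after their values were seen, both rose in PPVL spleens, Fos by 1.23 and Jun by 0.43 on the log2 scale (limma, adjusted p = 0.981 for both). Fos had 8.41, 8.50 and 8.41 in PPVL rats, against 6.84, 7.69 and 7.07 in sham rats, and Jun had 8.97, 8.67 and 9.08 in PPVL rats, against 8.46, 8.66 and 8.29 in sham rats. The 9 members Mmp13, Mmp12, Mmp3, Mmp1, Mmp10, Mmp8, Mmp27, Mmp20 and Mmp7 are neighbours on chromosome 8. Their promoters, 300 bases from 250 before the transcription start, were searched for TGANTCA, which reads the same on both strands. It was found in 7 of these 9 promoters, in 9 of the 48 members with a promoter in the RefSeq table (GRCr8) and in 7.33% of all 33469 promoters. The windows below show it in capitals with 12 bases on either side, because these genes share the motif and none of them passed the test.
Mmp13 (chr8:12782751-12782781, + strand): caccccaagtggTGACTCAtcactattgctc
Mmp12 (chr8:12866553-12866583, + strand): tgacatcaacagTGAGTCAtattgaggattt
Mmp3 (chr8:12925198-12925228, + strand): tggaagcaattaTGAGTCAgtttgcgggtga
Mmp1 (chr8:12943357-12943387, + strand): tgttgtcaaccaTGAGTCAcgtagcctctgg
Mmp10 (chr8:12974634-12974664, + strand): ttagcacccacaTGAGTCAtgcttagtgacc
Mmp20 (chr8:13074171-13074201, + strand): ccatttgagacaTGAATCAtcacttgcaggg
Mmp7 (chr8:13132951-13132981, + strand): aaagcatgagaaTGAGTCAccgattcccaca

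In all 7 genes the motif begins 61 to 96 bases before the start, and Mmp1 holds a second match, TGAATCA, 242 bases before it. None of the 9 neighbours passed the test. Their log2 fold changes lay between -0.16 and 0.22, with a median of -0.03, and 7 of them were below the 40th percentile of mean level. The motif was in the promoters of 0 of the 7 changed members that the table holds, which are Adam8, Adam12, Adam17, Adamts2, Adamts7, Adamts12 and Adamtsl4. A count of 0 in 7 is close to the share of 7.33% of all promoters. Mmp2 and Mmp14 have no promoter there and were not searched. The part of AP-1 in the changes was not tested. A match describes letters only and does not show that a protein binds.

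Of the 25 Adam genes, 2 rose and 1 fell, where 2.69% of all genes were higher and 1.55% lower. Without PPVL rat 1, 1 was higher and none lower, where 1.62% and 0.925% of all genes were. Adam8 is an Adam protease of leukocytes. It had log2 values of 8.45, 8.46 and 8.51 in PPVL rats 1, 2 and 3, against 8.11, 8.14 and 8.22 in sham rats 1, 2 and 3. The groups were far apart for their spread, with an SD of 0.03 in PPVL and 0.06 in sham rats. Adam8 was 1.25-fold higher, a log2 fold change of 0.32 (SE 0.08), which was 0.33 without PPVL rat 1.

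Adam12, or meltrin alpha, is expressed by mesenchymal cells and cleaves binding proteins of insulin-like growth factors. It had 8.12, 7.57 and 6.91 in PPVL rats, against 6.91, 6.86 and 6.39 in sham rats. The PPVL rats spread widely, and PPVL rat 3 equalled sham rat 1 to 2 decimals. Adam12 was 1.76-fold higher, a log2 fold change of 0.81 (SE 0.30), and lost its call without PPVL rat 1 (0.52), PPVL rat 2 (0.80), sham rat 2 (0.89) or sham rat 3 (0.65). The closely related Adam19, or meltrin beta, was also higher in every PPVL rat, at 9.32, 8.98 and 8.90, against 8.88, 8.88 and 8.72 in sham rats. That difference of 0.24 did not pass and was 0.11 without PPVL rat 1.

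Adam17 is the enzyme that releases tumor necrosis factor from the cell surface. It had 9.59, 9.51 and 9.46 in PPVL rats, against 9.66, 9.73 and 9.76 in sham rats. Every PPVL rat was lower, but by little: the log2 fold change was -0.20 (interval -0.39 to -0.002). The call was lost without any one of the 6 rats, at -0.23 to -0.17, and the drop without PPVL rat 1 was -0.23. Tnf, which encodes its best known substrate, had 6.89, 6.61 and 6.59 in PPVL rats, against 7.30, 7.06 and 6.87 in sham rats. PPVL rat 1 lay just above sham rat 3, the only overlap, and Tnf fell by 0.39 on the log2 scale (SE 0.14) and by 0.48 without PPVL rat 1.

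The other Adam genes gave no call. Adam9 and Adam15, which are widely expressed, had log2 fold changes of 0.10 and 0.17. Adam28, known from lymphocytes, had -0.18, with 3.83 to 3.995 in PPVL rats and 3.93 to 4.27 in sham rats. Adam28 lay at percentile 12.9 of mean level, at the dim end of the array. The non-proteolytic Adam11, Adam22 and Adam23 of the nervous system had 0.17, 0.08 and -0.01. Adam2, Adam3a, Adam5, Adam18 and Adam32, genes of the sperm surface, lay between -0.17 (Adam32) and 0.08 (Adam3a) and below the 40th percentile of mean level. These 5 are examples and do not stand for the rest of the family. Adam1a, Adam6 and Adam4 had -0.06, -0.05 and 0.04 at percentiles 60.2, 58.6 and 47, and Adam30 had 0.19 at percentile 16.8. The mean of 6 markers of testis germ cells was 5.40 to 5.48 in PPVL rats and 5.44 to 5.54 in sham rats. The lowest log2 fold change of all members was that of Adam4l1, at -0.23. It had 5.72, 5.02 and 5.81 in PPVL rats, against 5.69, 5.74 and 5.82 in sham rats, so that PPVL rat 2 alone was low.

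Of the 14 Adamts genes, 3 rose and none fell, where 2.69% and 1.55% of all genes did. Without PPVL rat 1 none passed, where 1.62% of all genes were higher and 0.925% lower. Adamts2 removes the amino-terminal propeptide of fibrillar procollagens, a step before fibrils form. It had 7.995, 7.84 and 7.77 in PPVL rats, against 7.42, 7.80 and 7.39 in sham rats. Sham rat 2 lay among the PPVL rats, so the groups overlap. The log2 fold change of 0.33 (SE 0.13) was lost without PPVL rat 1 (0.27), PPVL rat 2 (0.35), PPVL rat 3 (0.38), sham rat 1 (0.27) or sham rat 3 (0.26). All 6 rats kept, the call was also lost with array weights (0.28), quantile normalization (0.32), median centring (0.33) or the replicate block (0.33). The other procollagen proteinases did not pass, with Adamts3 at -0.17 and Adamts14 at -0.002, and Adamts3 passed as lower only without sham rat 1 (-0.32).

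Adamts7 and Adamts12 form a pair that cleaves cartilage oligomeric matrix protein. Adamts7 had 5.98, 6.22 and 5.88 in PPVL rats, against 5.68, 5.79 and 5.74 in sham rats. Adamts12 had 7.33, 7.11 and 7.13 in PPVL rats, against 7.06, 6.81 and 6.61 in sham rats. In neither gene do the groups overlap, although PPVL rat 2 and sham rat 1 were close in Adamts12. Adamts7 rose by 0.29 (SE 0.11) and Adamts12 by 0.36 (SE 0.14) on the log2 scale. Adamts7 lost its call without PPVL rat 1 (0.31), PPVL rat 2 (0.19) or any one sham rat (0.26 to 0.32), and Adamts12 without PPVL rat 1 (0.29), PPVL rat 3 (0.39), sham rat 2 (0.35) or sham rat 3 (0.25). The 5 measured enzymes of the aggrecanase clade, which cleaves large proteoglycans, had positive log2 fold changes, from 0.04 for Adamts15 to 0.29 for Adamts1, and none passed. Adamts1 had 6.98, 6.56 and 6.81 in PPVL rats, against 6.55, 6.70 and 6.25 in sham rats, which overlap.

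Of the 5 Adamtsl genes, 1 rose and none fell, where 2.69% of all genes were higher and 1.55% lower. The gene that rose was Adamtsl4, whose protein binds fibrillin in microfibrils. Its values were 7.79, 7.89 and 7.81 in PPVL rats, against 7.48, 7.59 and 7.38 in sham rats. The groups were clearly apart, and PPVL rat 1 was here the lowest of the PPVL rats. Adamtsl4 was 1.27-fold higher, a log2 fold change of 0.35 (SE 0.09), which was 0.37 without PPVL rat 1. Adamtsl1 (0.25) and Adamtsl2 (0.20), of which the second also binds microfibril proteins, did not pass, and Adamtsl3 and Adamtsl5 had -0.06 and 0.03.

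None of the 5 inhibitors passed the test. Timp1, a secreted inhibitor induced by cytokines and growth factors, had 8.56, 8.56 and 8.60 in PPVL rats, against 7.87, 9.14 and 8.33 in sham rats. The PPVL rats were nearly equal (SD 0.03), while the sham rats spread over more than 1 doubling (SD 0.65) on both sides of them. Timp1 had a log2 fold change of 0.13 (interval -0.57 to 0.83), 0.48 and past the threshold without sham rat 2, and -0.16 without sham rat 1. The mean of 6 mesothelial markers was 6.36, 6.91 and 6.92 in PPVL rats, against 6.45, 7.83 and 6.95 in sham rats, so that sham rat 2 was the highest in both. The part of capsule tissue in Timp1 was not tested.

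Timp2 takes part in the activation of Mmp2 by Mmp14 besides inhibiting both. It had 10.45, 10.26 and 10.41 in PPVL rats, against 10.28, 10.19 and 9.44 in sham rats. Sham rat 3 was far below the other 5 rats, which lay between 10.19 and 10.45. The log2 fold change was 0.40 (interval -0.12 to 0.93) and 0.14 without sham rat 3.

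Timp3, which binds to the matrix and inhibits Adam17 as well as Mmp enzymes, had 10.72, 10.69 and 10.78 in PPVL rats, against 10.59, 10.63 and 10.32 in sham rats. No other inhibitor had non-overlapping groups, and Timp3 had a log2 fold change of 0.22 (interval -0.04 to 0.48) and of 0.12 without sham rat 3. Reck, which restrains Mmp2, Mmp9 and Mmp14 at the cell surface, had 8.74, 8.32 and 8.14 in PPVL rats, against 7.96, 8.21 and 7.99 in sham rats. Its groups overlap, and the log2 fold change was 0.34 (interval -0.05 to 0.74), 0.18 without PPVL rat 1, and 0.47 and past the threshold without PPVL rat 3. Timp4 had -0.06 at the dim end of the array.

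**Figure D3:**
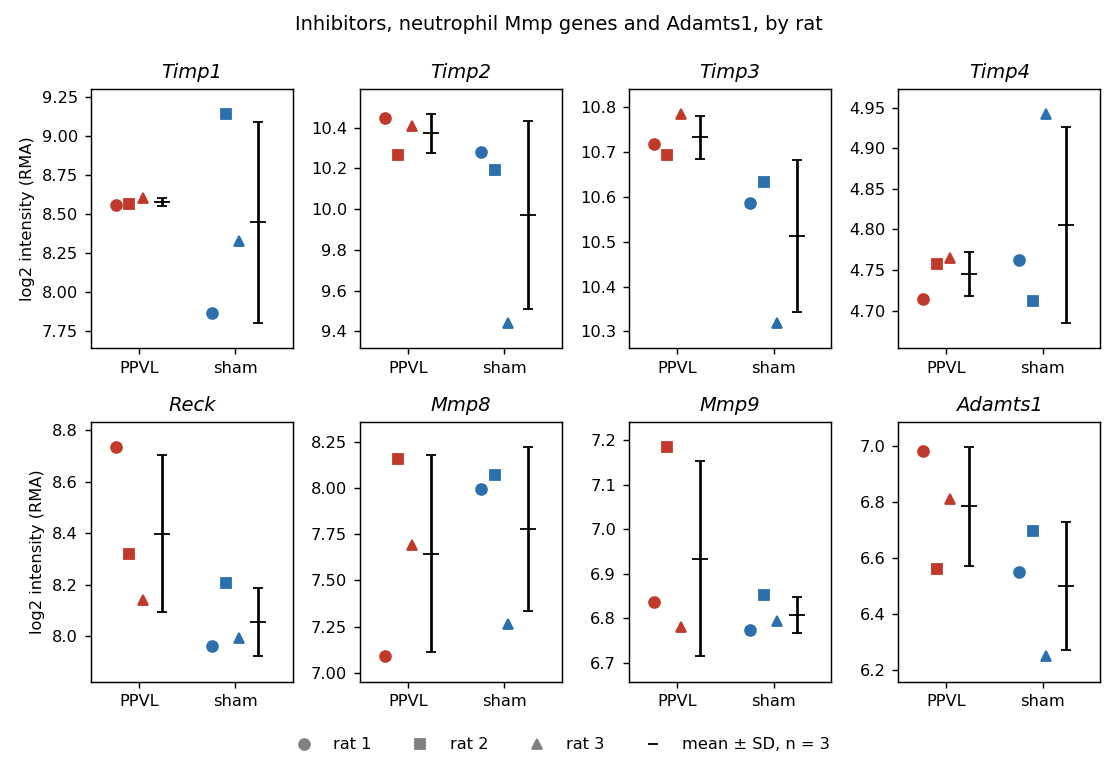
Log2 intensity (y axis) of the 5 inhibitors, the neutrophil enzymes Mmp8 and Mmp9, and Adamts1, with PPVL rats in red at the left and sham rats in blue at the right. Symbols mark rats 1, 2 and 3 and bars give the mean ± SD of 3 rats. Single sham rats set the spread of Timp1 and Timp2 (9.14 in sham rat 2, 9.44 in sham rat 3), and PPVL rat 1 is highest in Reck.

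Genes that act with these proteases were examined as 2 further lists. Of 26 activators, partners and other inhibitors, 22 were measured, 1 rose and 0 fell, where 2.69% of all genes were higher and 1.55% lower. The median log2 fold change was 0.06, against 0.005 over all genes. The gene that rose was Serpine2, a protease inhibitor of thrombin and plasminogen activators, with 7.73, 7.68 and 7.75 in PPVL rats, against 7.64, 7.41 and 7.22 in sham rats. These groups do not overlap, and the log2 fold change of 0.30 (SE 0.12) was also 0.30 without PPVL rat 1 but no longer past the threshold. A2m, a broad protease inhibitor of plasma, had 8.70 in PPVL rat 1 but 6.82 to 6.96 in PPVL rats 2 and 3, against 6.61 to 6.84 in sham rats. Furin, the convertase that removes the propeptide of Mmp14 and many Adam proteins, had a log2 fold change of -0.08, and Rhbdf2, which escorts Adam17 to the cell surface, had 0.04. Of 20 substrates released by Adam proteases, 18 were measured, 0 rose and 1, Tnf, fell, beside the same shares of all genes, with a median of 0.10. A single gene in either list is close to those shares.

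Without PPVL rat 1, 3 members rose and 0 fell, where 1.62% of all genes were higher and 0.925% lower. The 3 were Mmp2, Adam8 and Adamtsl4. The median log2 fold change over members was then 0.08, and 41 of the 69 had a positive value, where 50.8% of all genes did. PPVL rats 2 and 3 lay above every sham rat in 11 members, where 9.75% of all genes did so, and Mmp2 alone exceeded 1.5-fold, where 0.248% of all genes did. After adjustment 0 genes passed. By family, the median was 0.04 with all rats and 0.07 without PPVL rat 1 for Mmp, 0.04 and -0.006 for Adam, 0.11 and 0.08 for Adamts, 0.20 and 0.17 for Adamtsl, and 0.22 and 0.18 for the inhibitors. PPVL rat 1 held the highest value in 31.9% of members, against 19.2% of all genes, and sham rat 3 the lowest in 30.4% of members, against 21.7% of all genes. Without both of these rats, a setting chosen after the data were seen, 4 members were higher and 0 lower, where 1.55% and 1.27% of all genes were. These were Mmp2 at 0.68, Mmp11 at 0.44, Adam8 at 0.36 and Adamtsl4 at 0.32. Mmp14 was then at 0.18 and Adam12 at 0.36, neither past the threshold.

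**Figure D4:**
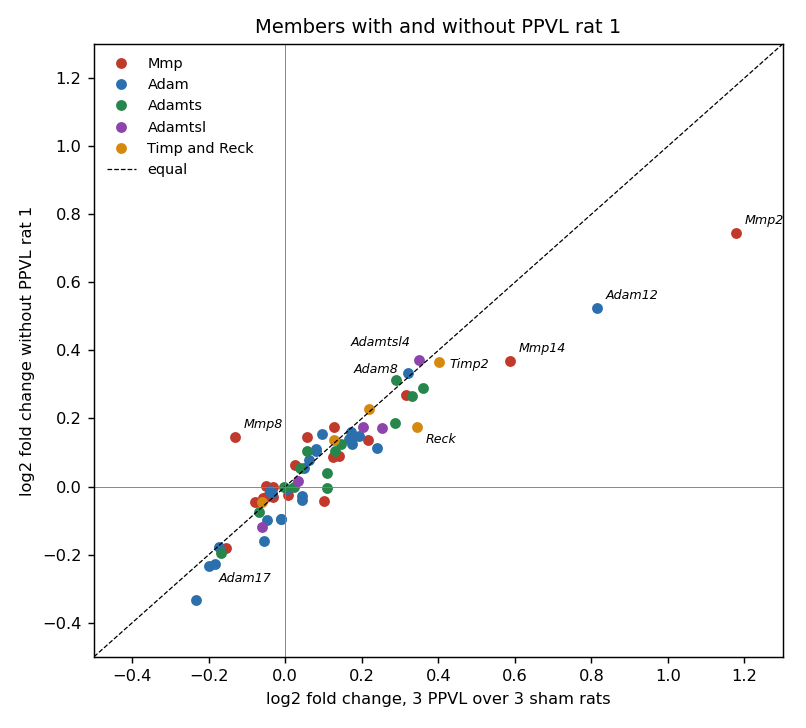
Log2 fold change of each member without PPVL rat 1 (y axis) against that with all 6 rats (x axis), coloured by family, with a dashed line where both are equal. Mmp2 (1.18 and 0.74), Adam12 (0.81 and 0.52), Mmp14 (0.59 and 0.37) and Reck (0.34 and 0.18) fall below the line, while Adam8 and Adamtsl4 lie on it or slightly above.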

How the data were processed

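The authors hybridised spleen RNA of 6 rats to GeneChip Rat Gene 2.0 ST arrays and deposited log2 values of 36685 probe sets, summarised with Robust Multiarray Average in Transcriptome Analysis Console. All probe sets were kept, and the number of arrays limits the precision. Gene symbols came from the annotation of the array platform and were brought up to date by Entrez identifier in the GRCr8 gene table of RefSeq (18394 of 18511 probe sets with 1 symbol matched), and each gene was represented by its probe set with the highest mean.

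The difference between PPVL and sham rats was estimated without covariates by lmFit and eBayes (limma 3.58.1, R 4.3.3) on all probe sets, with Benjamini-Hochberg adjustment over 18166 genes, and the script was tested on simulated data. P-values set the group difference against the spread among these rats within a group, which limma moderates toward a value from all probe sets. Members and lists were chosen with earlier results of these data known, and the supplementary tables of the study list Mmp2, Mmp14, Adam8, Adam17, Adamts2, Adamts12 and Adamtsl4 as changed on the same arrays, so their direction is not independent evidence. The study also lists Adamts16 there, which was not analysed here. Values are given for members past the threshold, the 6 highest and 6 lowest by log2 fold change, the inhibitors, Mmp9, and genes describing a subfamily, the last chosen after their values were seen. A planned split of Adam genes by catalytic motif was not made, since protein sequences were not used here. The markers were those of spleen, exocrine pancreas, fibroblasts, mesothelium, neutrophils, testis germ cells and adipocytes, the last with a mean of 6.90 to 7.06 in PPVL and 6.80 to 6.87 in sham rats. Promoter sequences are from RefSeq (GRCr8), and 21 members were not in that table. The alternatives were the replicate block, each rat left out, a filter on dim probe sets, probe sets with 1 symbol only, a robust prior, a variance trend, quantile normalization, array weights, centring on medians, averaged probe sets per gene, and, added after the data were seen, 2 rats left out together.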

Additional observations from a re-analysis of the deposited data

How the results depend on the processing

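Mmp2, Adam8 and Adamtsl4 kept their direction and stayed past an unadjusted p under 0.05 in all 16 alternatives, at log2 fold changes of 0.68 to 1.53, 0.30 to 0.36 and 0.30 to 0.40. The count of 8 higher members was 3 to 8 with single rats left out, 4 without PPVL rat 1 and sham rat 3 together, and 6 to 8 in the remaining alternatives. Over all genes, the count of 488 higher was 295 to 539, 282 and 408 to 644 in these settings, in that order. The filter on dim probe sets left fewer genes to test. The count of 1 lower member was 0 to 1 with single rats left out and 0 with the replicate block, array weights, quantile normalization, median centring or both rats left out. Over all genes, the count of 281 lower was 168 to 503 with single rats left out and 188 to 397 in the other alternatives. Without sham rat 1 the lower member was Adamts3 in place of Adam17. Left out singly, rats also added Mmp11 (sham rat 3), Mmp16, Adamts1 and Adamtsl2 (PPVL rat 2), Adamtsl1 and Reck (PPVL rat 3) and Timp1 (sham rat 2) to the higher members. With all 6 rats, array weights and median centring added Mmp11, array weights lost Adam12, Mmp14 and Adamts2, median centring lost Mmp14 and Adamts2, and quantile normalization lost Adamts12 and Adamts2. Of the 20 genes chosen by the naming rule, signs turned for 3, none past the threshold. Over all 69 members, 9 changed sign without PPVL rat 1, Mmp8 among them (-0.13 with all rats, 0.15 without). With single rats left out, Adam4l1 ranged between -0.38 and 0.013 (above 0 without PPVL rat 2), Timp1 between -0.16 and 0.48 (below 0 without sham rat 1), and Timp4 between -0.11 and 0.0080 (above 0 without sham rat 3), and Timp4 was at 0.024 without PPVL rat 1 and sham rat 3. The causes were not tested.

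Replicate numbers were treated as names only. The deviations of same-numbered PPVL and sham rats correlated at -0.17, 0.23 and 0.17 across genes for numbers 1, 2 and 3. PPVL rat 1 correlated best with sham rat 3 (0.21), PPVL rat 2 with sham rat 1 (0.24) and PPVL rat 3 with sham rat 3. Deviations from a mean of 3 rats depend on each other, so these values cannot settle whether the rats were paired. With the replicate block 7 members were higher and 0 lower, with Adamts2 and Adam17 no longer past the threshold. Over all genes, 425 were higher and 271 lower with the block, against 488 and 281 without it.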
